A study of Mus musculus with 31 samples.

Results

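Serotonin and milk calcium transport genes were followed across Stat5 genotypes of the mouse mammary gland. The 10 members were chosen by gene symbol, and 10 of 10 were found among the 22609 genes of each of 2 FPKM tables. They are Tph1 (serotonin synthesis), Pthlh (parathyroid hormone-related protein), Casr (calcium sensing), Orai1 (calcium entry), Atp2c1 and Atp2c2 (Golgi pumps), Atp2b1, Atp2b2 and Atp2b4 (plasma membrane pumps) and Atp2a2 (reticulum pump). RNA came from whole mammary tissue without lymph nodes of mice of a mixed 129SV::FVB/N::C57BL/6 strain, at day 6 of pregnancy or at parturition, less than 12 hours after the birth. The groups carried 0 to 4 functional alleles of Stat5a and Stat5b, which encode transcription factors activated by prolactin signalling. Null mice (Stat5abfl/fl;MMTV-Cre, 0 alleles) lost both genes through a Cre transgene under the MMTV promoter, in mammary epithelial cells according to the design text. B mice (Stat5abnull/Stat5a-) kept 1 Stat5b allele and A mice (Stat5abnull/Stat5b-) kept 1 Stat5a allele. BB mice (Stat5a-/-) kept 2 Stat5b alleles, and AB mice (Stat5ab+/null) kept 1 allele of each gene. In these 4 genotypes the alleles were lost in the germline, so Null also stands apart from them in how its alleles were removed. AABB mice (labelled wild type, 4 alleles) are the reference of the study. The age of the mice is not given in the sources used here.

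Milk calcium comes from blood and crosses the alveolar epithelial cell. Calcium enters that cell through channels, is loaded into the Golgi and secretory vesicles by the secretory pathway pumps together with casein, and is pumped across the apical membrane into milk, in lactating mouse glands mainly by the Atp2b2 product PMCA2. Tph1 makes the first and rate-limiting step of serotonin synthesis outside the brain. Mammary serotonin is known, in mice, to induce Pthlh, whose product is released to the circulation in lactation and frees calcium from bone. The calcium-sensing receptor encoded by Casr is known from mouse work to tune both PTHrP secretion and calcium transport.

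STAT5 dimers bind palindromes of the form TTCNNNGAA, so the promoters of the members were searched for these letters, which read the same on both strands. RefSeq promoter windows of build GRCm38.p6 (250 bases before to 50 after an annotated start) matched 8 of 10 members, in 13 windows. A match was present in 1 of 13 windows, that of Orai1, as TTCCAGGAA starting at position −207 relative to the start. Over all RefSeq windows of this length, 8.30% held a match (2726 of 32851). A match describes letters only, and a window without a match says nothing about binding. The Orai1 window is shown for its match, in capitals. That of Pthlh is shown because this gene, like Orai1, was below AABB in all mutant columns at parturition, with Orai1 short of 2-fold in BB. Both windows of Tph1 are shown because its direction differed between the stages.
Orai1 (chr5:123014824-123015123, plus strand): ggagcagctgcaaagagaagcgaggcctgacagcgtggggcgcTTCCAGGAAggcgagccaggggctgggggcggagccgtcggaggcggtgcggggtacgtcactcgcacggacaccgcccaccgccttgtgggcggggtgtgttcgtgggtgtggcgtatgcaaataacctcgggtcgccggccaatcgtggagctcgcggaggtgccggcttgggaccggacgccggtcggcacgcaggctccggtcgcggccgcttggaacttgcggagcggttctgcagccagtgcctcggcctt
Pthlh (chr6:147263964-147264263, minus strand): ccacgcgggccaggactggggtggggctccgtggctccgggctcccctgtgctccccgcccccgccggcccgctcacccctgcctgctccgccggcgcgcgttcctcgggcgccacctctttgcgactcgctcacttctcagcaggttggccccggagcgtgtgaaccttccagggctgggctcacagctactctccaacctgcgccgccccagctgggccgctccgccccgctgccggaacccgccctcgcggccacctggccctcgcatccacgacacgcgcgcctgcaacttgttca
Tph1, upstream start (chr7:46672488-46672787, minus strand): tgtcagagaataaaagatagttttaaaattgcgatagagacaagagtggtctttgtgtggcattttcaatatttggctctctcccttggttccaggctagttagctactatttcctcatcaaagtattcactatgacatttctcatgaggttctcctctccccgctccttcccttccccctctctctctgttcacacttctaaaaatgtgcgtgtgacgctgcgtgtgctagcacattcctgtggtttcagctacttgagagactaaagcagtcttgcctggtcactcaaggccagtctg
Tph1, downstream start (chr7:46667328-46667627, minus strand): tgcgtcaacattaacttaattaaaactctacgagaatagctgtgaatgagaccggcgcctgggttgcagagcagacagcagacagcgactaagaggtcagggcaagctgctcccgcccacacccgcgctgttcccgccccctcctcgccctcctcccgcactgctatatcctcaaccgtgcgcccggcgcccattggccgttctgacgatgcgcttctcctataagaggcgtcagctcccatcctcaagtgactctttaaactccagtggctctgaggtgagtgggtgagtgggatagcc

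A column of the tables is the authors' mean over the samples of 1 genotype. On day 6 there were 18 samples, 3 to a genotype. Parturition had 13, with 3 in B and 2 in the rest. Without single samples there is no SD, no replicate check of a difference and no p-value, and neighbours in any order of levels could not be told apart by a spread. Read depth is unknown. Levels are FPKM after scaling within a stage. A log2 ratio was taken after adding 1 to both levels, which understates differences of weakly expressed genes. A gene was counted as higher or lower when this ratio reached 2-fold. A fold without a log2 is the plain ratio of 2 levels of at least 1 FPKM. Stat5a was lowest in BB, at 3.67 on day 6 and 4.30 at parturition, but the column labelled B held 12.5 and 8.60, and the column labelled A held Stat5b at 10.6 and 10.3. Null held Stat5a at 13.6 on day 6 and 6.96 at parturition, and Stat5b at 9.04 and 7.65. Every direction given for B and A refers to the columns so labelled. Samples of B and A carry tags with shared numbers, and the labels do not say whether they share an animal. Tissue differed between columns. Skeletal muscle markers summed to 6663 in AB on day 6, against 32.8 to 490 in the other columns, and at parturition to between 2147 and 3544 in Null, B and A, between 5.01 and 8.37 in BB and AB, and 220 in AABB.

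At parturition Atp2b2, Atp2c2, Orai1, Atp2c1 and Pthlh were highest in AABB. Atp2b2, Atp2c2 and Pthlh were at least 2-fold lower in all 5 mutant columns (for Atp2c2 in BB and AB not under every scaling), whereas Orai1 and Atp2c1 did not reach 2-fold in BB. The first 4 were lowest with 0 or 1 allele, and Pthlh was lowest in BB. Atp2b4 and Atp2b1 were lowest in AABB. Of 10 members 9 passed the filter on low values, and Casr did not. Atp2b2 passed only through BB, AB and AABB, so the counts are descriptions. In Null, 6 members were lower and 1 higher than in AABB, beside 10.7% and 19.1% of the tested genes. In B, 5 were lower and 2 higher (10.1% and 18.2% of the tested genes). In A, 3 were higher (17.3%), and 8 differed in either direction (27.3%). In BB, 3 were lower and 3 higher (5.37% and 8.07%). In AB, 5 were lower and 3 higher (5.45% and 10.2%). The median log2 ratio of the members that passed was −1.90 in Null, −1.65 in B, −1.68 in A, −0.80 in BB and −1.02 in AB, against medians of 0.04 to 0.11 over all tested genes. These 5 comparisons share the AABB column. In bulk tissue fewer cells of a type and less RNA per cell cannot be told apart. The median of all tested genes in Null over AABB was 0.10 here and 0.50 on FPKM as deposited, so that ratios moved upward with it there. On FPKM as deposited, 5 members were lower and 2 higher in Null, 5 lower and 4 higher in B (Atp2b1 and Atp2a2 were added), and 3 lower and 3 higher in AB (Orai1 and Atp2c1 were lost from the lower ones). With totals equal outside caseins and whey proteins, AB had 2 lower and 4 higher. Of the calls over all genes in these 5 comparisons, 80.1% to 85.6% were higher ones on FPKM as deposited, against 60.0% to 65.2% after scaling.

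**Figure D1:**
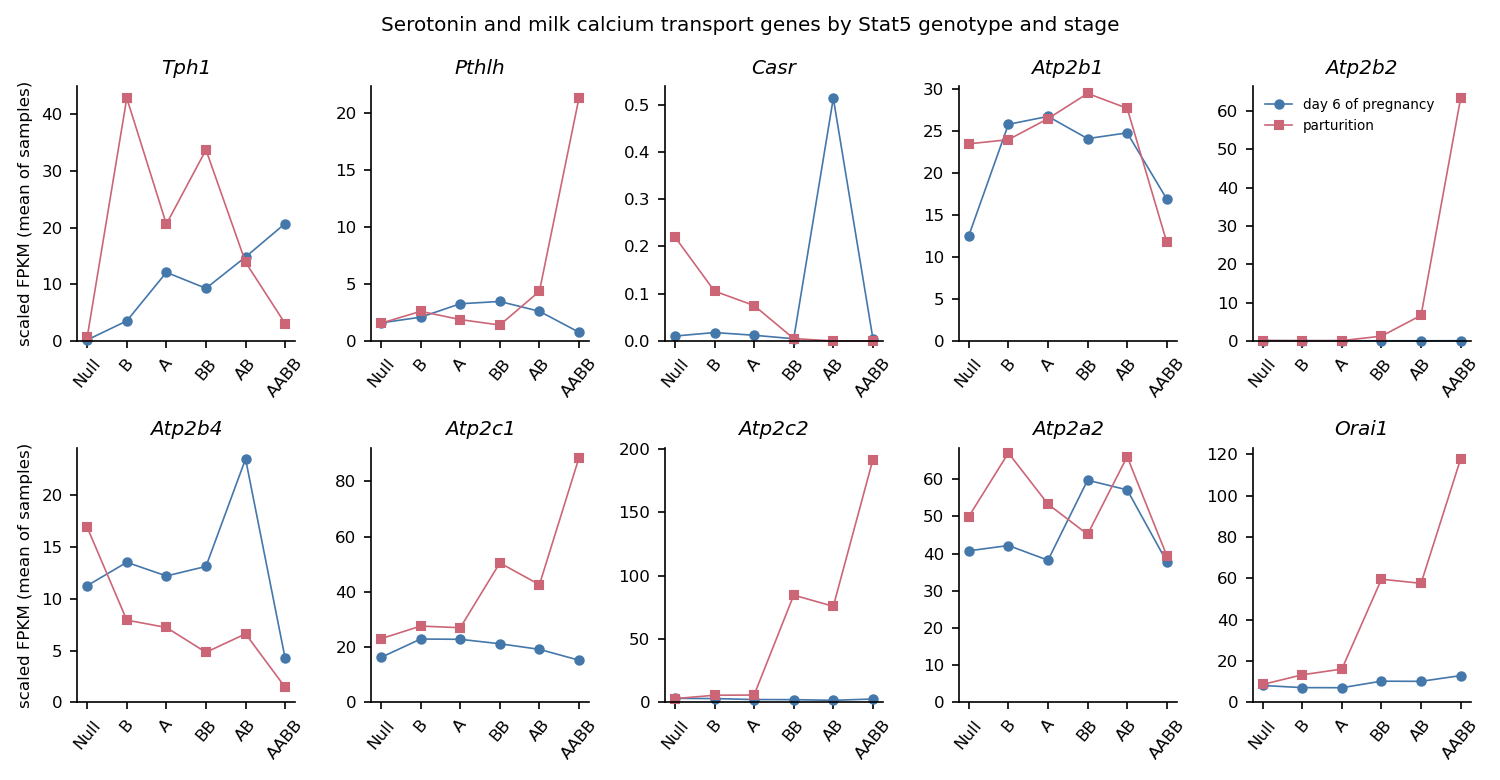
Scaled FPKM (vertical axes, from 0, one scale per panel) of the 10 members in each genotype, in order of functional Stat5 alleles, at day 6 of pregnancy (circles) and parturition (squares). Each point is the authors' mean over samples without error, and lines only join the genotypes of a stage. At parturition Atp2b2 stood at 63.3 in AABB and at 6.67 or less in the other columns, while Tph1 peaked at 42.8 in B.

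On day 6 of pregnancy Orai1, Atp2c1 and Atp2c2 did not reach a 2-fold difference from AABB in any genotype, and the members that did were Tph1, Atp2b4 and Pthlh. Of 10 members 8 passed the filter, since Casr and Atp2b2 did not. In Null, 1 member was lower (2.09% of the tested genes) and 1 higher (2.21%). In B it was 1 lower (5.18%) and 1 higher (7.56%). In A none was lower (5.54%) and 2 were higher (7.01%). In BB 1 was lower (3.60%) and 2 higher (5.12%). In AB none was lower (5.01%) and 2 were higher (6.78%). Tph1 was the lower one in Null, B and BB, Atp2b4 was higher in all 5 genotypes, and Pthlh was higher in A, BB and AB. The AB count of higher members became 1 on FPKM as deposited, and the A, BB and AB counts became 1 with a floor of 5 FPKM, which Pthlh did not pass. With a pseudocount of 0.1 the B count became 2, and with totals equal outside caseins and whey proteins Tph1 was no longer called in BB.

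**Figure D2:**
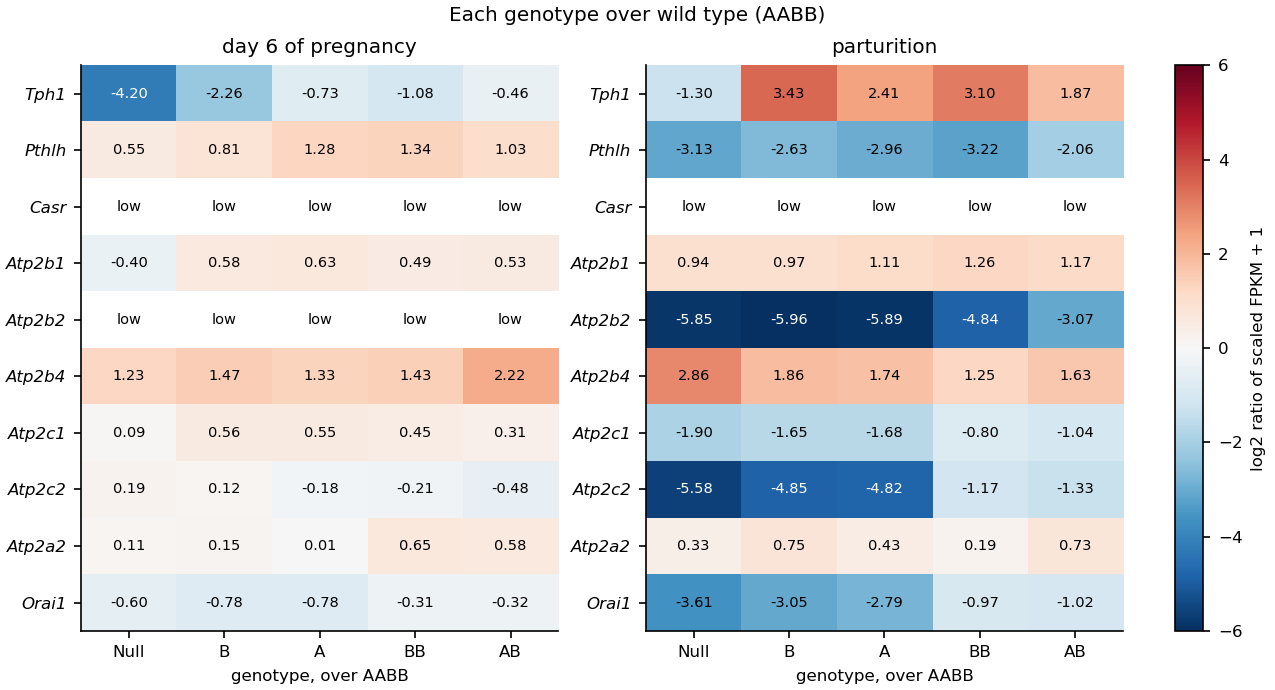
Log2 ratio of scaled FPKM + 1 of each genotype over AABB for the 10 members, at day 6 of pregnancy (left) and parturition (right), with red for higher and blue for lower; "low" marks members that did not pass the filter on low values. The blue block of Pthlh, Atp2b2, Atp2c1, Atp2c2 and Orai1 at parturition has no blue counterpart past 2-fold on day 6. There Atp2b2 is marked low, and Pthlh is red, past 2-fold in A, BB and AB. Tph1 is blue on day 6 and red at parturition in B, A, BB and AB.

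Tph1, the serotonin-synthesis gene, had different orders of genotypes at the 2 stages. On day 6 its level was 0.180 in Null, 3.53 in B, 12.1 in A, 9.28 in BB, 14.8 in AB and 20.7 in AABB. All mutant columns were below AABB, and the log2 ratios were −4.20 in Null, −2.26 in B, −0.73 in A, −1.08 in BB and −0.46 in AB. At parturition Tph1 was 0.650 in Null, 42.8 in B, 20.6 in A, 33.7 in BB, 13.9 in AB and 3.06 in AABB. Null was again the lowest, but the 4 genotypes with 1 or 2 alleles were above AABB, with log2 ratios of 3.43 in B, 2.41 in A, 3.10 in BB and 1.87 in AB. In BB only 16 of 13061 tested genes had a higher ratio to AABB. The Null difference was small in level at parturition, with a log2 ratio of −1.3 that fell just short of 2-fold on FPKM as deposited and was −0.96 with totals equal outside caseins and whey proteins. With 1 allele, A exceeded B on day 6 (log2 ratio 1.53) and was below B at parturition (−1.02). With 2 alleles, AB exceeded BB by 0.62 on day 6 and was below BB at parturition (−1.22).

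Mast cells also express Tph1, and their markers differed between the columns. Of 10 mast cell markers in the tables all passed the filter on day 6, and 4 were higher than AABB in Null (2.21% of all tested genes), 8 in B (7.56%), 8 in A (7.01%), 6 in BB (5.12%) and 5 in AB (6.78%), with none lower. Of these markers, Ms4a2 passed only through B and A, and Fcer1a only through the columns with 1 or 2 alleles. They could not be called lower there, so the marker counts are descriptions. At parturition 9 passed, and 7 were higher in Null (19.1%), 9 in B (18.2%), 7 in A (17.3%), 6 in BB (8.07%) and 7 in AB (10.2%), with none lower. On day 6 their summed level was 82.0 in Null, 491 in B, 478 in A, 395 in BB, 292 in AB and 74.5 in AABB. At parturition the sum was 178 in Null, 229 in B, 179 in A, 183 in BB, 165 in AB and 15.9 in AABB. The mast cell protease gene Cpa3 was 3.98 in Null, 89.1 in B and 0.974 in AABB on day 6, where Tph1 was highest in AABB. At parturition Cpa3 was 22.0 in Null, 28.7 in B, 23.9 in BB and 1.63 in AABB, and Null held the lowest Tph1. In the 4 columns with 1 or 2 alleles both genes were above AABB, and the part of mast cells in those Tph1 levels was not tested.

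**Figure D3:**
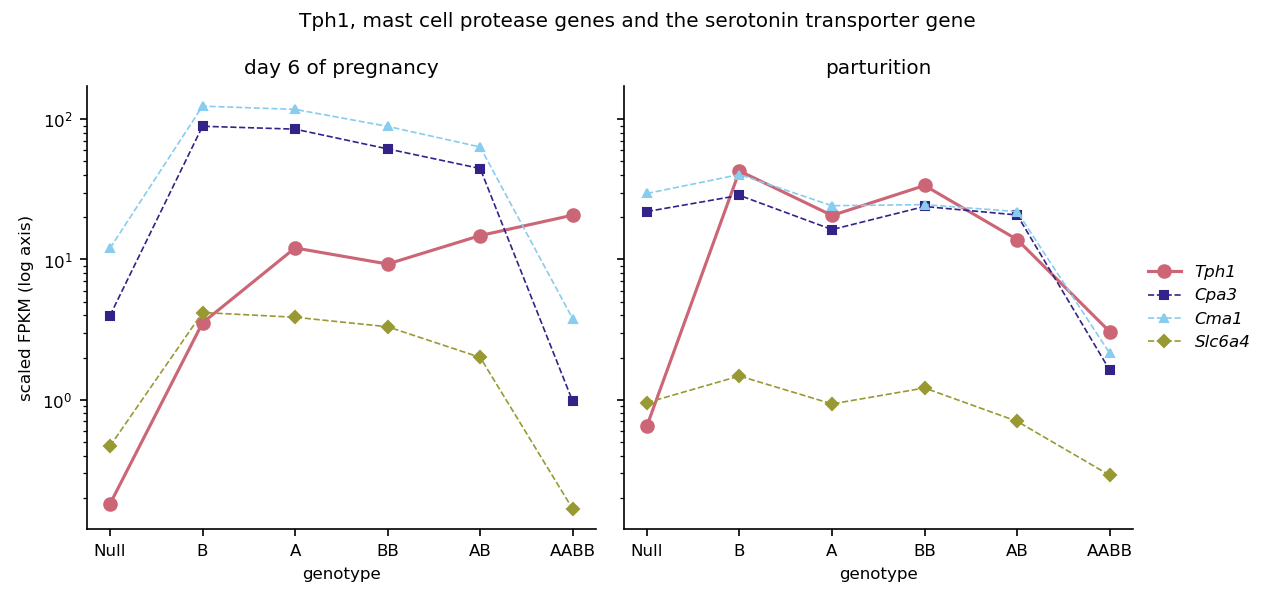
Scaled FPKM (log axis) of Tph1, the mast cell protease genes Cpa3 and Cma1, and the serotonin transporter gene Slc6a4, by genotype at day 6 of pregnancy (left) and parturition (right); each point is the authors' mean without error. On day 6 Tph1 is highest in AABB, at 20.7, where Cpa3 is lowest, at 0.974, and at parturition Tph1 is 0.650 in Null beside Cpa3 at 22.0. Both genes are highest in B at parturition, Tph1 at 42.8 and Cpa3 at 28.7. The part of mast cells in the Tph1 levels was not tested.

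Of 17 other serotonin genes, 10 passed the filter on day 6, and none was lower than AABB in any genotype. Those higher were none in Null (2.21% of all tested genes), 3 in B (7.56%), 4 in A (7.01%), 2 in BB (5.12%) and 1 in AB (6.78%). Slc6a4, the serotonin transporter, was 0.467 in Null, 4.19 in B, 3.87 in A, 3.31 in BB, 2.00 in AB and 0.166 in AABB, an order like that of Cpa3. Slc6a4 passed the filter only through the columns with 1 or 2 alleles, so the counts that include it are descriptions. Slc18a2, a vesicular monoamine transporter, and the receptor gene Htr1b were also higher in B and A. At parturition 11 passed, with 2 higher (19.1%) and 1 lower (10.7%) in Null. The degrading enzyme gene Maob was 23.1 in Null, 16.4 in B, 13.5 in A, 9.00 in BB, 7.45 in AB and 3.47 in AABB. The vesicular transporter gene Slc18a1 was 0.0791 in Null and 1.93 in AABB. Ddc, the enzyme after Tph1 and named here after its values were seen, did not pass the filter at either stage and was at most 0.571.

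Pthlh, the PTHrP gene, was low on day 6, at 1.59 in Null, 2.09 in B, 3.27 in A, 3.47 in BB, 2.61 in AB and 0.763 in AABB. AABB was the lowest column there. At parturition the order differed, with 1.56 in Null, 2.60 in B, 1.88 in A, 1.40 in BB, 4.37 in AB and 21.4 in AABB. AABB was highest, and the mutant columns were 13.7-fold (Null), 8.21-fold (B), 11.4-fold (A), 15.3-fold (BB) and 4.90-fold (AB) lower. In BB only 25 of 13061 tested genes had a lower ratio. Among the mutants AB was highest, with a log2 ratio of 1.16 to BB and of 0.90 to A. Tph1 at parturition was 0.650 in Null, 42.8 in B, 20.6 in A, 33.7 in BB, 13.9 in AB and 3.06 in AABB. Whether Tph1 bears on Pthlh was not tested.

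Casr, the calcium-sensing receptor gene, was barely detected. On day 6 it was at most 0.0178 in 5 columns, and 0.514 in AB. At parturition it was 0.220 in Null, 0.105 in B, 0.0749 in A and 0.00500 in BB, and it was listed at 0 in AB and AABB. The highest columns, AB on day 6 and Null at parturition, were also those with the highest skeletal muscle sums, 6663 and 3544, and whether muscle bears on Casr was not tested.

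Orai1, the pore subunit of store-operated calcium entry, was 8.21 in Null, 7.17 in B, 7.12 in A, 10.3 in BB, 10.2 in AB and 13.0 in AABB on day 6. AABB was highest, and no genotype reached a 2-fold difference. At parturition Orai1 was 8.70 in Null, 13.4 in B, 16.1 in A, 59.6 in BB, 57.6 in AB and 118 in AABB. The mutant columns were 13.5-fold (Null), 8.81-fold (B), 7.29-fold (A), 1.98-fold (BB) and 2.04-fold (AB) lower. The AB difference, with a log2 ratio of −1.02, lost its 2-fold size on FPKM as deposited (−0.79). Within the 3 Orai genes, whose levels per length can be added, Orai1 made up 33.3% of the sum in Null, 37.2% in B, 38.5% in A, 78.7% in BB, 75.3% in AB and 89.5% in AABB at parturition. On day 6 its share was 24.3% in Null and 35.3% in AABB. Orai3 held most of the sum in all columns of day 6 and in Null, B and A at parturition.

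Atp2c2, which encodes the secretory pathway pump SPCA2, showed the widest span of the Golgi pumps. On day 6 it was 3.23 in Null, 3.04 in B, 2.28 in A, 2.21 in BB, 1.66 in AB and 2.71 in AABB, and no genotype differed 2-fold. At parturition it was 3.01 in Null, 5.66 in B, 5.83 in A, 84.5 in BB, 75.7 in AB and 191 in AABB. Null was 63.6-fold lower than AABB, B 33.8-fold, A 32.8-fold, BB 2.26-fold and AB 2.53-fold. The BB difference had a log2 ratio of −1.17, which became −0.86 on FPKM as deposited, and that of AB (−1.33) became −0.94 with totals equal outside caseins and whey proteins. Atp2c1, the more widely expressed SPCA1 gene, was 23.1 in Null, 27.7 in B, 27.0 in A, 50.5 in BB, 42.6 in AB and 88.6 in AABB at parturition. It was 3.84-fold lower in Null, 3.21-fold in B, 3.28-fold in A, 1.75-fold in BB and 2.08-fold in AB, where the log2 ratio of −1.04 became −0.81 on FPKM as deposited. On day 6 Atp2c1 lay between 15.3 in AABB and 23.0 in B. The share of Atp2c2 in the summed level of the 2 Golgi pumps at parturition was 11.5% in Null, 17.0% in B, 17.7% in A, 62.6% in BB, 64.0% in AB and 68.3% in AABB. On day 6 that share was between 7.96% (AB) and 16.5% (Null).

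**Figure D4:**
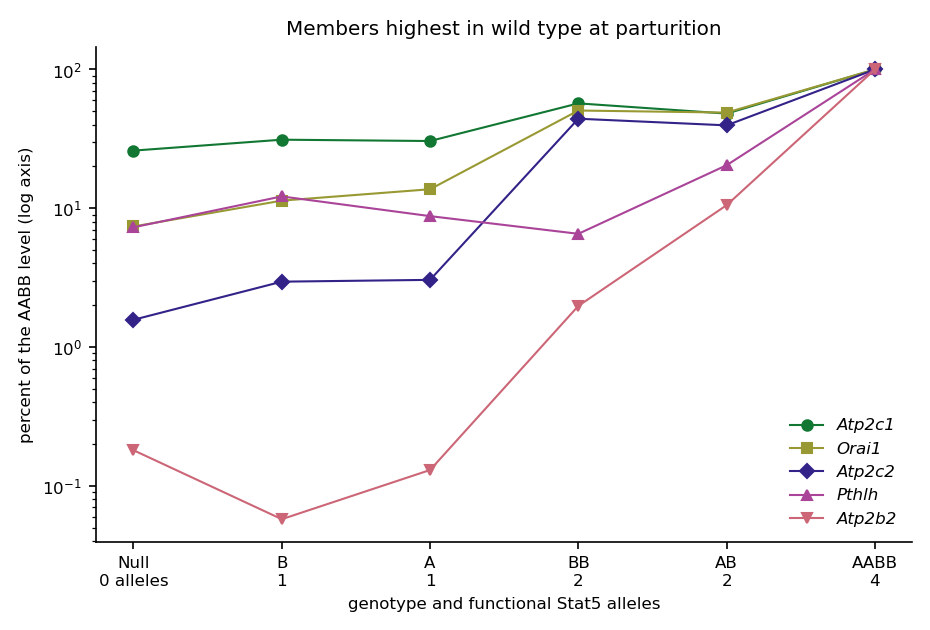
Level at parturition of the 5 members that were highest in AABB, as a percent of their AABB level (log axis), by genotype in order of functional Stat5 alleles; points are means without error and lines only join the points of a gene. In BB and AB, Atp2c1, Orai1 and Atp2c2 stand between 39.6% and 57.0%, Pthlh at 6.55% and 20.4%, and Atp2b2 at 1.98% and 10.5%.

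Atp2b2, the gene of the apical pump PMCA2, was below 0.1 FPKM in every column on day 6. At parturition it was 0.114 in Null, 0.0364 in B, 0.0824 in A, 1.25 in BB, 6.67 in AB and 63.3 in AABB. AABB stood apart from all mutant columns, and the 3 columns with 0 or 1 allele did not reach 0.2 FPKM. The log2 ratios were −5.85 in Null, −5.96 in B, −5.89 in A, −4.84 in BB and −3.07 in AB. BB was 50.5-fold and AB 9.50-fold lower than AABB. AB exceeded BB (log2 ratio 1.77) although both keep 2 alleles. As a percent of the AABB level, Atp2b2 reached 1.98% in BB and 10.5% in AB, while Atp2c2 reached 44.2% and 39.6% and Orai1 50.6% and 48.9% in these same columns.

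The other plasma membrane pumps ran the other way. Atp2b4 (PMCA4) was 16.9 in Null, 7.95 in B, 7.24 in A, 4.84 in BB, 6.63 in AB and 1.46 in AABB at parturition, 11.6-fold higher in Null than in AABB. On day 6 it was 11.3 in Null, 13.5 in B, 12.2 in A, 13.1 in BB, 23.5 in AB and 4.25 in AABB. AABB was lowest at both stages, and the highest columns were again those with the most skeletal muscle transcript, AB on day 6 and Null at parturition. At parturition the muscle sum was 5.01 in BB and 220 in AABB, and Atp2b4 was 3.31-fold higher in BB. Whether muscle bears on Atp2b4 was not tested. At parturition adipocyte markers summed to 13537 in Null, 3974 in BB and 1668 in AABB, and fibroblast markers to 2153 in Null, 2278 in BB and 389 in AABB, and their part in the Atp2b4 levels was not tested. Atp2b1 (PMCA1), the widely expressed family member, was 23.5 in Null, 24.0 in B, 26.5 in A, 29.5 in BB, 27.7 in AB and 11.8 in AABB at parturition. Its log2 ratios were 0.94 in Null, 0.97 in B, 1.11 in A, 1.26 in BB and 1.17 in AB, and on FPKM as deposited those of Null and B were 1.38 and 1.44. On day 6 it was 12.6 in Null, between 24.1 and 26.8 in the genotypes with 1 or 2 alleles, and 16.9 in AABB. Of the summed level of the 4 plasma membrane pumps at parturition, Atp2b2 made up 0.282% in Null, 0.114% in B, 0.243% in A, 3.52% in BB, 16.2% in AB and 82.7% in AABB. Atp2b1 made up 57.9% in Null, 74.9% in B, 78.3% in A, 82.9% in BB, 67.6% in AB and 15.4% in AABB. These shares do not depend on the scaling.

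**Figure D5:**
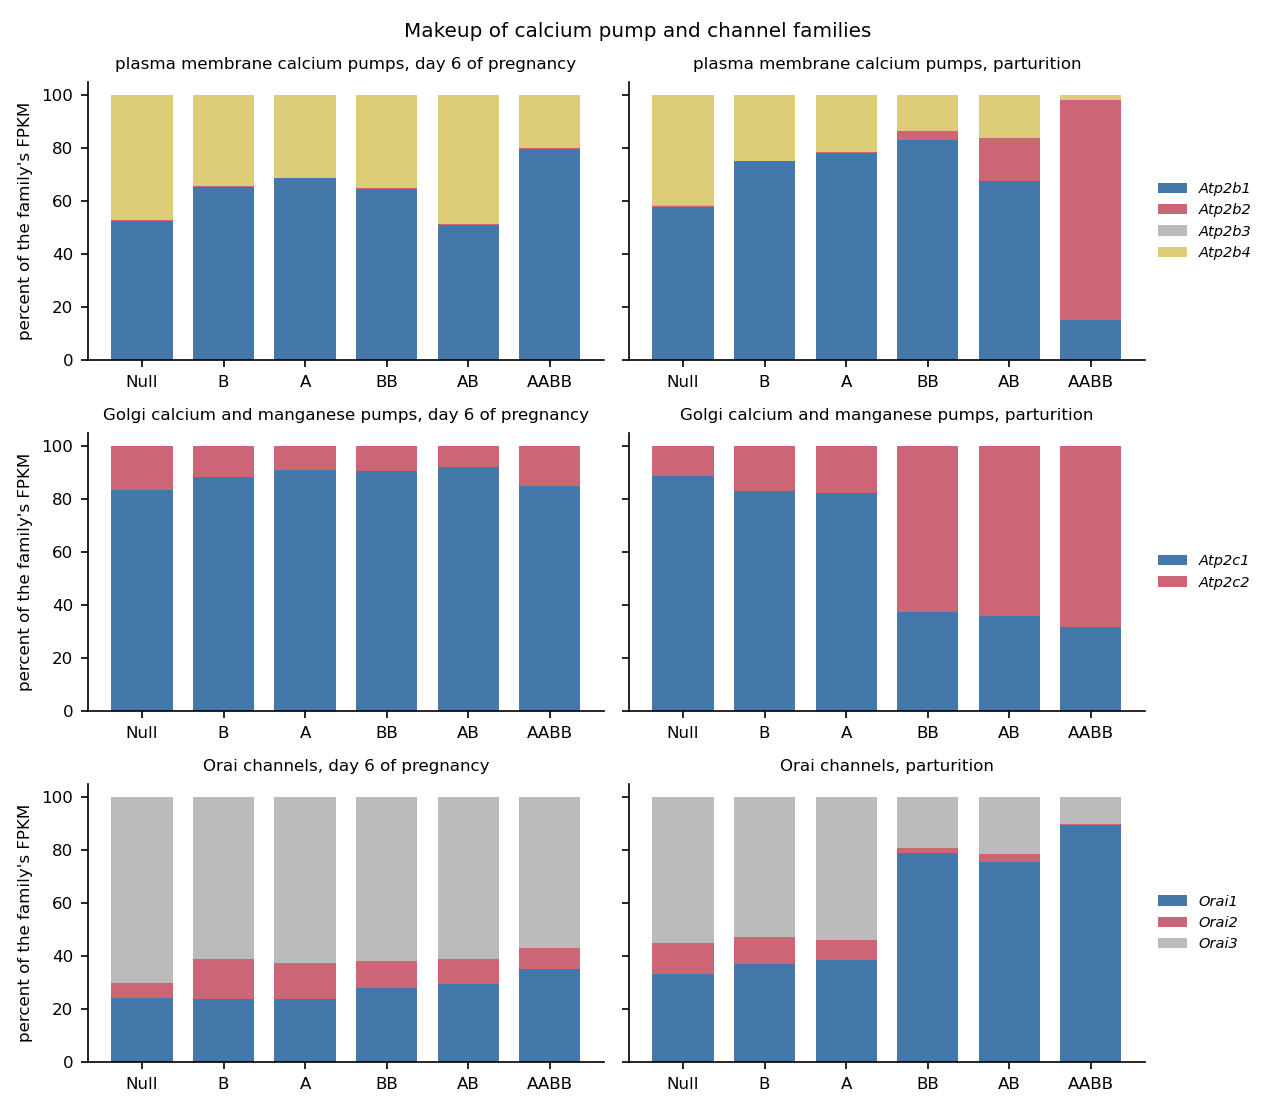
Percent of the summed FPKM of the plasma membrane calcium pumps (top), the Golgi pumps (middle) and the Orai channels (bottom) that each gene made up, by genotype, at day 6 of pregnancy (left) and parturition (right). At parturition Atp2b2 holds 82.7% of its family in AABB and 16.2% or less elsewhere, whereas Atp2c2 and Orai1 hold most of theirs in BB, AB and AABB.

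Atp2a2, which encodes the reticulum pump SERCA2, differed least from AABB at parturition. There it was 49.9 in Null, 67.0 in B, 53.3 in A, 45.1 in BB, 66.0 in AB and 39.4 in AABB, and on day 6 between 37.8 in AABB and 59.7 in BB. No genotype reached 2-fold over AABB at either stage. On FPKM as deposited its log2 ratio in B at parturition was 1.24 in place of 0.75.

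Allele number and isoform were compared among the mutants. In BB over B, 3 members were higher at parturition and none lower (3.25% and 4.62% of the tested genes). They were Atp2c2, with a log2 ratio of 3.68, Orai1 (2.08) and Atp2b2 (1.12). In AB over A, 3 were higher and none lower (2.70% and 3.26%), with Atp2c2 at 3.49, Atp2b2 at 2.82 and Orai1 at 1.77. Atp2b2 passed the filter only through BB, where it was 1.25, AB and AABB. It could therefore not be called lower in BB over B or AB over A, and both counts are descriptions. In A over B only Tph1 was called, lower at parturition (0.345% of the tested genes, with 0.360% higher) and higher on day 6 (0.135%, with 0.247% lower). In AB over BB at parturition, Atp2b2 and Pthlh were higher (1.06%) and Tph1 was lower (0.720%), and on day 6 no member was called (1.73% higher and 0.988% lower). On day 6 Tph1 alone was higher in BB over B (1.87%, with 4.59% lower), and no member was called in AB over A (3.76% and 4.11%). Over Null, Orai1, Atp2c1 and Atp2c2 did not reach 2-fold with 1 allele at parturition. In B over Null, Tph1 was higher (2.72%) and Atp2b4 lower (2.86%), and the Atp2b4 log2 ratio of −1.0 became −0.98 on FPKM as deposited, while Atp2c2 reached 0.73 and Orai1 0.57. In A over Null, Tph1 was higher (3.51%) and Atp2b4 lower (3.19%). On day 6, Tph1 was higher in B over Null (6.42%, with 3.95% lower), and Tph1 and Atp2b1 were higher in A over Null (6.08%, with 4.67% lower).

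The tables of the 2 stages were scaled apart, which touches levels set side by side across them. In AABB, Atp2b2 was 63.3 at parturition and 0.0582 on day 6, Atp2c2 191 and 2.71, Orai1 118 and 13.0, Atp2c1 88.6 and 15.3, and Pthlh 21.4 and 0.763. Tph1 was 3.06 at parturition and 20.7 on day 6, and Atp2b4 1.46 and 4.25. In Null, Atp2c2 was 3.01 at parturition and 3.23 on day 6, Orai1 8.70 and 8.21, and Pthlh 1.56 and 1.59. The Null over AABB log2 ratio at parturition minus that on day 6 was −5.77 for Atp2c2, −3.68 for Pthlh, −3.01 for Orai1 and −1.99 for Atp2c1. It was 2.90 for Tph1, 1.64 for Atp2b4, 1.34 for Atp2b1 and 0.23 for Atp2a2. Casr, below the filter at both stages, and Atp2b2, below it on day 6, are left out.

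The label of these genes as milk transport genes was set beside epithelial markers and milk proteins. Of 10 luminal markers, 3 were lower (10.7% of all tested genes) and none higher (19.1%) in Null than in AABB at parturition, and none was at 0. Their sum was 1369 in Null, 2457 in B, 2545 in A, 3213 in BB, 2721 in AB and 2676 in AABB. Hormone-sensing epithelial markers summed to 141 in Null, 146 in B, 99.1 in A, 56.3 in BB, 49.3 in AB and 43.4 in AABB. The genes of this sum did not run alike. Foxa1 was 46.9 in Null, 4.39 in AB and 1.01 in AABB, whereas Prlr was 51.6, 14.9 and 28.3 in these columns. Basal and myoepithelial markers summed to 574 in Null, 1148 in B, 956 in A, 2120.5 in BB, 1468 in AB and 884 in AABB. All 8 casein and whey genes were lower in Null, and they held 0.466% of all FPKM in Null, 1.24% in B, 3.76% in A, 40.1% in BB, 42.1% in AB and 62.0% in AABB.

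Among 28 other calcium-handling genes measured, 22 passed the filter, and at parturition 7 were higher and 3 lower in Null than in AABB (19.1% and 10.7% of all tested genes). In B 6 were higher and 3 lower (18.2% and 10.1%), and in A 7 were higher (17.3%) and 10 differed in either direction (27.3%). In BB 3 were higher and 5 lower (8.07% and 5.37%), and in AB 6 were higher and 4 lower (10.2% and 5.45%). The median log2 ratio in Null was 0.15, against 0.10 over all tested genes. The 2 lowest in Null were Nucb2, a calcium-binding protein of the secretory pathway, and Tmem165, a Golgi ion transporter. Nucb2 was 18.6 in Null, 34.6 in B, 41.5 in A, 190 in BB, 221 in AB and 498 in AABB. Tmem165 was 21.5 in Null, 25.8 in B, 27.3 in A, 101 in BB, 79.8 in AB and 342 in AABB. Both, like Atp2c2, were lowest in Null and highest in AABB. The 2 highest in Null, Atp2a1 (log2 ratio 5.14) and Pvalb (3.26), are skeletal muscle genes. On day 6, 2 were higher in Null (2.21%), 2 lower in B (5.18%) and 2 higher in AB (6.78%), each time Atp2a1 and Pvalb, and none was called in A or BB. Of 10 calcium hormone genes 7 passed at parturition, with 2 higher (19.1%) and 1 lower (10.7%) in Null. Vdr, the vitamin D receptor gene, was 8.31 in Null, 17.5 in B, 19.9 in A, 35.8 in BB, 61.5 in AB and 118 in AABB. Pth1r, the receptor of PTHrP, was 18.1 in Null, 4.74 in BB and 2.15 in AABB. Calca, the calcitonin gene, was 26.4 in Null, 3.03 in BB and 1.47 in AABB at parturition, whereas on day 6 it was 37.1 in Null and 216 in AABB.

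The genes most like 4 of the members were taken as those with the highest Pearson correlation of stage-centred log2 levels over the 12 columns (6 genotypes at 2 stages), among 12749 genes. These columns share their libraries and scaling, and the values are descriptions. For Atp2c2 they were Cope (r = 0.993), Tsta3 (0.990) and Srp68 (0.986). For Atp2b2 they were Tom1 (0.987), Eef2k (0.979) and Hs3st3b1 (0.979). Atp2b2 was below the filter on day 6, so its profile rests on few columns of parturition. There Tom1 was 15.5 in Null and 32.5 in AABB, and Atp2b2 0.114 and 63.3. For Pthlh they were Nap1l3 (0.958), Tmem64 (0.939) and Eif5 (0.936). Nap1l3 was weakly expressed, at 1.30 in Null and 2.53 in AABB at parturition. For Tph1 they were Fxyd2 (0.963), Hmgn2 (0.960) and Zfand5 (0.928).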

How the data were processed

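RNA-seq of mouse mammary tissue was deposited by the authors as 2 tables of FPKM per gene symbol, 1 per stage. CASAVA, TopHat and build mm9 are named in the submitters' processing notes, without versions; counting and annotation are not given in the sources used here. Each column is a mean over the samples of a genotype: in columns for 3 samples, 66.6% to 67.6% of the values of at least 1 end in recurring decimals, as a mean over 3 would, and in the other columns 0.996% to 1.33%. The protocol names 2 mice per genotype, although 3 samples are listed for some. Per-sample values were not analysed here, so the planned limma fits could not be run, and depth and counting error are unknown.

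Columns of a stage were divided by median-ratio factors from genes of at least 1 FPKM in all 6 columns (11733 on day 6 and 10864 at parturition). The factors were 0.916 to 1.07 on day 6 and 0.794 to 1.13 at parturition. A gene was kept where 2 or more of the 6 columns reached 1 FPKM (13367 and 13061 genes), and was called at 2-fold on log2(FPKM + 1), in 11 comparisons per stage. The scripts (Python 3.11.15, numpy 2.4.6, pandas 2.3.3, matplotlib 3.10.9) were tested on simulated data. All 10 members are named, and from each gene list up to 4 genes with the largest ratio. The members, lists and comparisons were chosen with earlier results of these data known. Promoter windows came from RefSeq (GRCm38.p6) and were not joined to mm9 coordinates. Alternatives were a pseudocount of 0.1, no filter, a floor of 5 FPKM, FPKM without scaling and, chosen after seeing the data, totals equal outside caseins and whey proteins and factors set without the AB column.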

Additional observations from a re-analysis of the deposited data

How the results depend on the processing

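No paired analysis was possible because each column is a mean over samples, and for the same reason leaving out each replicate in turn was not run. No member ratio or stage difference of at least 2-fold reversed its direction under any alternative. Smaller ratios were not checked for direction. Atp2c1 on day 6 was 16.3 in Null and 15.3 in AABB after scaling, against 15.8 and 15.9 as deposited. The number of members at least 2-fold different in B over Null on day 6 was 2 in place of 1 with a pseudocount of 0.1, on FPKM as deposited and with totals equal outside caseins and whey proteins. In B over Null at parturition it was 1 in place of 2 on FPKM as deposited and with factors set without the AB column. In A over AABB on day 6 it was 1 in place of 2 with a floor of 5 FPKM, and in AB over AABB on day 6 it was 1 in place of 2 with that floor and on FPKM as deposited. The Null over AABB ratio of Casr at parturition minus that on day 6 moved to 1.60 (log2) with a pseudocount of 0.1, from 0.28, and rests on levels below the filter, so it is not used. On day 6, 40.0% of the calls over all genes were higher ones in Null on FPKM as deposited, against 51.5% after scaling; in BB it was 46.2% against 58.7%, and in AB 40.4% against 57.5%. With totals equal outside milk proteins the share was 80.4% in B, 76.4% in A and 71.0% in BB on day 6, and 77.0% to 86.6% in the 5 mutants at parturition. Of 187 member ratios, 177 kept their side of 2-fold on FPKM as deposited and 176 with equal totals outside milk proteins. The number was 183 with the pseudocount of 0.1, 187 without a filter and 186 without the AB column. The causes were not tested. Levels below 1 FPKM (Casr, and Atp2b2 outside BB, AB and AABB at parturition) carry no usable ratio among themselves.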

Other observations

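Within the reticulum pumps, Atp2a2 made up 12.7% of the summed level of Atp2a1, Atp2a2 and Atp2a3 in Null, 25.0% in B, 22.3% in A, 91.6% in BB, 92.0% in AB and 79.8% in AABB at parturition. Atp2a1, the skeletal muscle gene of this family, was 337 in Null, 192 in B, 176 in A, 0.309 in BB, 0.360 in AB and 8.61 in AABB, while Atp2a2 itself spanned 39.4 to 67.0.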
